A study of Homo sapiens with 2 samples.

Results

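TP73 enrichment was examined at 8 feedback regulators of the p53 pathway, MDM2, MDM4, PPM1D, CCNG1, TP53INP1, ZMAT3, PHLDA3 and TP53I3, in TL-Om1 cells, a line established from human adult T-cell leukaemia. A peak was assigned to a gene when its summit lay in the hg19 span of the gene or within 20 kb of it, whatever its strength, which gave 18 peaks of 18908 in the list. The 1 ChIP library was made with an antibody against TP73 from cells cross-linked in formaldehyde for 10 min, and the 1 input library is whole cell extract of the same line, grown without other treatment in RPMI-1640 with 10% serum. With 1 library per group and a single cell line, nothing measures the spread between cultures, and the intervals below cover counting error only. A peak list measures no RNA, so neither expression of these genes nor the identity of the cells was checked by markers.

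TP73 belongs to the p53 family of transcription factors, which bind a shared DNA element and can switch on overlapping sets of genes. Many genes switched on by p53 act back on it. MDM2 and MDM4 hold p53 down directly, PPM1D and CCNG1 do so through dephosphorylation, TP53INP1 promotes p53 phosphorylation, and ZMAT3, PHLDA3 and TP53I3 carry out parts of the response, in RNA stability, AKT signalling and oxidative stress.

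The start regions of 3 of the genes are shown because MDM2 carried 2 peaks around its start, TP53I3 the highest fold of the 18 peaks and MDM4 the lowest. Each is the 250 bases before a RefSeq start, on GRCh38.p14 and in the direction of transcription. Capitals mark 20-base matches, with up to 3 mismatches, to the p53-family element, which is 2 copies of a 10-base unit side by side and reads the same on both strands.
MDM2 upstream start, chr12:68807922-68808171, plus strand: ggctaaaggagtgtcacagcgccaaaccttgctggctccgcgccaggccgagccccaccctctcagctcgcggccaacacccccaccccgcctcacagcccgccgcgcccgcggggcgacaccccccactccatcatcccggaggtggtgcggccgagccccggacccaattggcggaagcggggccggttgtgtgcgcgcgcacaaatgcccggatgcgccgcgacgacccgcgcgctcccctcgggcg
MDM2 internal start, chr12:68808767-68809016, plus strand: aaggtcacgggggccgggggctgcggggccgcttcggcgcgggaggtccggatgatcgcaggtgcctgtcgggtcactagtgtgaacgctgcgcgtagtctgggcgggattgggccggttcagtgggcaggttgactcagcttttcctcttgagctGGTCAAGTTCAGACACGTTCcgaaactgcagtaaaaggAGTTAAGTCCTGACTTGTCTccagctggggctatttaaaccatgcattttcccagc
TP53I3, chr2:24084835-24085084, minus strand: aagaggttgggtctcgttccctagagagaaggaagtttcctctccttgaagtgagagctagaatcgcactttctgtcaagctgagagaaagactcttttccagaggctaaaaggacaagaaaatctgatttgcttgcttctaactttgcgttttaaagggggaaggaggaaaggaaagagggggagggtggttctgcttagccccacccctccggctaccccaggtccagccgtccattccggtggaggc
MDM4, chr1:204516156-204516405, plus strand: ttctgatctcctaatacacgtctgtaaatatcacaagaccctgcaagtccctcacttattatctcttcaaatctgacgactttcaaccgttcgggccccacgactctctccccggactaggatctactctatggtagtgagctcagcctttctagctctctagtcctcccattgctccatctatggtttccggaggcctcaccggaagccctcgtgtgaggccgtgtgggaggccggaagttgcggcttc

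The region before the internal MDM2 start, which lies in the first intron of transcripts from the upstream start and is known as the P2 promoter, held both matches. The first, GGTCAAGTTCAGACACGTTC, had 2 mismatches, and a match that close was present in the same 250 bases of 0.561% of 35116 RefSeq start regions. The second, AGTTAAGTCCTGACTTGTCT, lay 18 bases further on and had 3 mismatches, a level reached in 4.36% of start regions. RefSeq start regions were matched for 6 of the 8 genes (all but TP53INP1 and PHLDA3). In the 5 of these other than MDM2, the closest sequence in the 250 bases had at least 4 mismatches. Up to 4 mismatches occurred in 22.1% of start regions. The summits of these 5 genes lay mostly after the start, so the search does not tell whether their peaks hold the element. These letters are a description of the reference. They were not placed on the hg19 peaks, since positions were not converted between builds.

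All 8 genes had at least 1 TP73 peak. Of tiles of 100 kb along the genome, 33.3% held a peak, while the gene windows were 44 to 105 kb long. At least 2 peaks were assigned to 5 genes, against 14.9% of tiles, and 3 genes had a single peak. At 6 of the 8 genes a peak reached a fold enrichment over the control of 40, which 3.88% of tiles did. The tiles include gene-poor stretches, whereas every window here contains a gene, so the shares are a background and not a matched comparison. Together the 8 windows held 32.0 peaks per Mb (95% exact Poisson interval 18.9 to 50.5), against 6.30 over the whole genome.

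**Figure D1:**
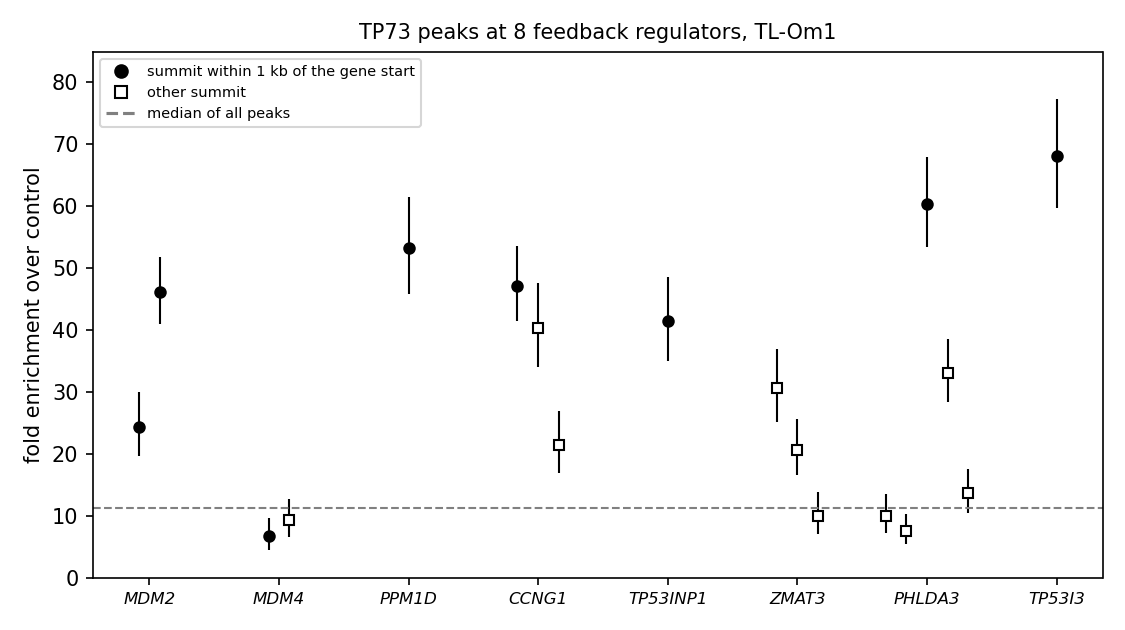
Fold enrichment over the control (y axis) of each of the 18 TP73 peaks at the 8 genes (x axis), ordered within a gene by position, with bars for the 95% Poisson interval of the ChIP reads at a fixed control level. The bars do not take into account that the list ends at 284 reads. Filled circles are summits within 1 kb of the gene start, open squares other summits, and the dashed line is the median of all peaks, 11.3; the 2 MDM4 peaks sit below it and the highest peaks of the other 7 genes above it.

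MDM2 encodes the ubiquitin ligase that marks p53 for degradation. Its first peak, chr12:69201359-69202113, had a summit about 200 bp before the start of the gene span, a fold of 24.4 (95% Poisson interval 19.6 to 30.02) and 88 ChIP reads at the summit. The second, chr12:69202310-69203038, had its summit about 700 bp inside the gene, a fold of 46.2 (41.0 to 51.9) and 283 ChIP reads. The internal peak therefore had 3.22 times the reads of the upstream one (95% exact interval 2.52 to 4.13). The 2 summits were 917 bp apart, and the 2 RefSeq starts whose upstream sequences are printed above are 845 bp apart. No other summit lay in the MDM2 window or within 50 kb of the gene. The 283 reads were the most at any of the 8 genes, and only 5 peaks of the whole list had more, all with 284. The list ends at 284 reads, which is also the length of 2 fragments of 142 bp, and whether a limit on duplicate reads sets that end was not tested. The intervals for this peak and for others near that end, and for ratios of their reads, do not take it into account.

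MDM4, a relative of MDM2 that binds p53 and blocks its activity, had the single weakest peak of the 18, and its highest peak was the lowest of the 8 genes. The peak chr1:204485544-204485766, about 700 bp inside the gene, had a fold of 6.72 (95% Poisson interval 4.51 to 9.67) and 27 ChIP reads. The peak chr1:204490377-204490567, 5.5 kb inside, had a fold of 9.33 (6.67 to 12.7) and 38 ChIP reads. The first stood above 7.28% of all peaks by fold and the second above 34.9%, so both were in the lower part of the list, and their reads did not differ beyond counting error (ratio 1.41, 95% exact interval 0.837 to 2.40). A much stronger peak lay just beyond the limit, 21.1 kb upstream of the gene at chr1:204463523-204464206, with a fold of 43.1 and 220 ChIP reads. Whether that peak belongs to MDM4 or to another gene was not tested.

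PPM1D, which encodes the phosphatase WIP1 that removes activating phosphates from p53 and its kinases, had a single strong peak. It lay at chr17:58677361-58677876, about 600 bp inside the gene, with a fold of 53.3 (95% Poisson interval 45.9 to 61.5) and 185 ChIP reads, above 97.2% of all peaks by fold. The next summit on the chromosome was 207967 bp away, although chromosome 17 as a whole had 11.2 peaks per Mb, more than the 9.52 in the PPM1D window.

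CCNG1 encodes cyclin G1, which brings a phosphatase to MDM2. It had 2 strong peaks inside the gene. The first, chr5:162864606-162865155, lay about 900 bp from the start and had a fold of 47.2 (95% Poisson interval 41.5 to 53.5) with 241 ChIP reads. The second, chr5:162866134-162866542, lay 2.3 kb from the start and had a fold of 40.4 (34.0 to 47.6) with 140 ChIP reads. Their folds had overlapping intervals, but their reads differed 1.72-fold (95% exact interval 1.39 to 2.14), since the first was scored against a higher control level. The third peak, chr5:162888511-162888831, had a fold of 21.5 and 74 ChIP reads and lay 16.7 kb beyond the end of the gene, the farthest from a span of the 18 peaks. In RefSeq (GRCh38.p14) NUDCD2 overlaps CCNG1 and HMMR is the next protein-coding gene on that side, and which gene this peak belongs to was not tested.

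TP53INP1 encodes a stress protein that promotes phosphorylation of p53 and takes part in autophagy. Its only peak, chr8:95961462-95962046, had a fold of 41.4 (95% Poisson interval 35.1 to 48.6) and 150 ChIP reads, above 93.9% of all peaks by fold. The summit lay about 200 bp inside the upper end of the gene span, which is the 5′ end of this gene on the minus strand. The nearest other summit was 53742 bp away.

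ZMAT3 encodes a zinc finger protein that binds RNA and alters the stability and splicing of transcripts. Unlike the other genes, it had none of its 3 summits within 1 kb of the start, taken as the 5′ end of the span. RefSeq (GRCh38.p14) also lists a start inside the gene, at chr3:179069342, besides the outer one at chr3:179071809. Distances from the internal start were not measured, and the summit 2.0 kb inside the gene may lie within 1 kb of it. The peak nearest to the start, chr3:178787819-178788117, lay 2.0 kb inside the gene, with a fold of 20.7 (95% Poisson interval 16.6 to 25.6) and 84 ChIP reads. The strongest, chr3:178729961-178730357, lay 4.8 kb beyond the 3′ end of the gene, with a fold of 30.6 (25.1 to 37.0) and 106 ChIP reads. The reads of these 2 peaks did not differ beyond counting error (ratio 1.26, 95% exact interval 0.939 to 1.70). The third, chr3:178797372-178797633, lay 7.5 kb upstream and had a fold of 10.03 with 34 ChIP reads, below the median of all peaks. In RefSeq (GRCh38.p14) KCNMB2 is the next protein-coding gene beyond the 3′ end and PIK3CA on the upstream side. The assignment of the peaks outside the span to ZMAT3 rests on distance alone.

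PHLDA3 encodes a small protein that competes with AKT for membrane lipids and so restrains AKT, and it had the most peaks, 5 in a window of 44 kb. The strongest, chr1:201437844-201438612, lay about 300 bp outside the upper end of the gene span, at the 5′ end of this minus-strand gene, and had a fold of 60.4 (95% Poisson interval 53.5 to 68.01) with 272 ChIP reads. It was also the widest of the 18 peaks, at 769 bp. A further 2 peaks lay upstream. The nearer, chr1:201445736-201446127 at 7.9 kb, had a fold of 33.2 (28.4 to 38.5) and 169 ChIP reads, and the farther, chr1:201449516-201449963 at 11.7 kb, had a fold of 13.7 (10.5 to 17.6) and 60 ChIP reads. On this side reads were lower farther from the gene. The start peak had 1.61 times the reads of the nearer upstream peak (95% exact interval 1.32 to 1.96), which had 2.82 times those of the farther one (2.09 to 3.85). Beyond the 3′ end, a pair of weak peaks lay 587 bp apart. They were chr1:201423264-201423563, with a fold of 10.02 and 39 ChIP reads, and chr1:201423857-201424078, with a fold of 7.61 and 38 ChIP reads. No summit lay inside the gene span itself, but its ends were rounded to 1 kb, so the start summit may lie in or outside the gene. CSRP1 is the next protein-coding gene on the upstream side and TNNI1 on the other in RefSeq (GRCh38.p14), and the assignment of the 4 distal peaks to PHLDA3 rests on distance alone.

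TP53I3, also called PIG3, encodes a quinone oxidoreductase linked to reactive oxygen species in the p53 response, and had the highest fold of the 8 genes. Its single peak, chr2:24306942-24307556, lay about 800 bp inside the gene from its start, with a fold of 68.2 (95% Poisson interval 59.8 to 77.4) and 237 ChIP reads. By fold it stood 111th of 18908 peaks and 10th on chromosome 2. The nearest other summit was 138084 bp away.

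**Figure D2:**
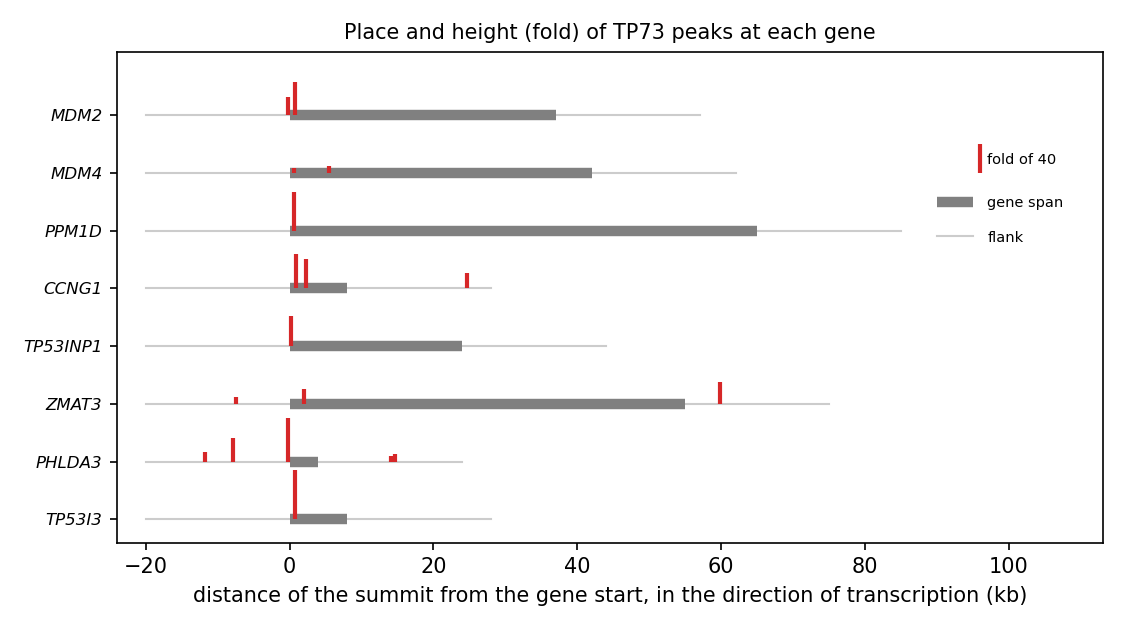
Distance of each TP73 summit from the gene start in the direction of transcription (x axis, kb) for the 8 genes (rows). Thick grey bars are the gene spans, thin lines the flanks of 20 kb, and the height of each red line is the fold on the scale shown; the tallest lines of 6 genes stand within 1 kb of the start, those of MDM4 and ZMAT3 do not.

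A summit lay within 1 kb of the start, taken as the 5′ end of the span, at 7 of the 8 genes. At 6 of them this was also the peak with the highest fold. Distances from starts inside a gene were not measured. At ZMAT3 a summit inside the gene may lie within 1 kb of the internal start. Of the 7 peaks with a fold of at least 40, 6 were start peaks, and of the 12 with a fold of at least 20, 7 were. The share of all peaks that lie near a gene start was not analysed here, so these counts have no background. Span ends were given to the nearest 1 kb, so distances below about 1 kb are approximate. The 8 start peaks had a median fold of 46.7 and ranged from 6.72 at MDM4 to 68.2 at TP53I3. Without MDM4 the lowest of the remaining 7 was 24.4. The other 10 peaks had a median fold of 17.2 and ranged from 7.61 to 40.4. The sets overlapped, and as peaks of 1 library they were not tested against each other. Of the 10, 3 lay inside a gene and 7 in a flank. In RefSeq (GRCh38.p14) MDM2, CCNG1, TP53INP1 and TP53I3 overlap another protein-coding gene each, CPM, NUDCD2, NDUFAF6 and FAM228B, which the assignment by position does not separate.

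Peaks of these genes were spread over nearly the whole range of the list, with more at the upper end than the list as a whole. A fold of at least 10 was reached by 15 of the 18, against 59.8% of all peaks. The counts were 12 of 18 for a fold of at least 20, against 23% of all peaks, 7 of 18 for at least 40, against 6.6%, and 3 of 18 for at least 50, against 3.54%. The 3 were the start peaks of TP53I3, PHLDA3 and PPM1D. The median fold of the 18 was 27.5, and that of all peaks 11.3. Their median width was 403 bp, against 255 bp, and their median number of ChIP reads 97, against 43. Width, reads and fold all come from the same pileup, so these are not separate results. Peaks of 1 gene share their surroundings and are not replicates.

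**Figure D3:**
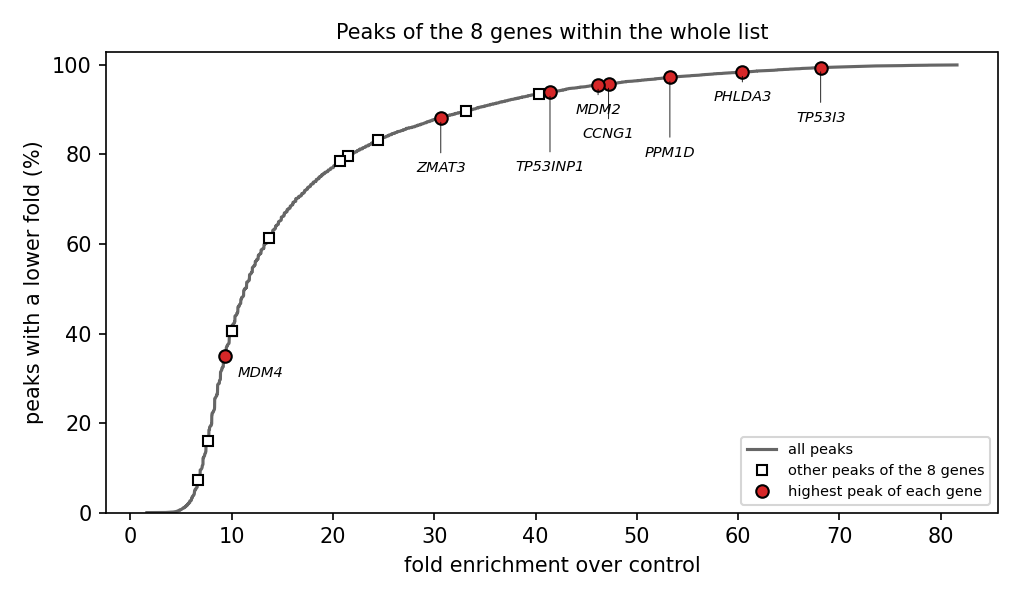
Share of all 18908 peaks with a lower fold (y axis, %) against fold enrichment over the control (x axis); the line is the whole list. Red circles mark the highest peak of each gene and open squares their other peaks; the red circles of 7 genes lie at or above 88.1%, and that of MDM4 at 34.9%.

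The order of the genes depended on whether fold or ChIP reads were compared. By reads of the strongest peak, MDM2 (283) came first, followed by PHLDA3 (272), CCNG1 (241), TP53I3 (237), PPM1D (185), TP53INP1 (150), ZMAT3 (106) and MDM4 (38). The ZMAT3 peak here is the one 4.8 kb beyond the 3′ end of the gene. Of the 7 neighbouring pairs in this order, 3 had an interval that excluded 1. The pairs were formed by sorting these same counts, each the highest of its gene, and the intervals were not adjusted for the 7 pairs. TP53I3 exceeded PPM1D 1.28-fold (95% exact interval 1.05 to 1.56), TP53INP1 exceeded ZMAT3 1.42-fold (1.10 to 1.83) and ZMAT3 exceeded MDM4 2.79-fold (1.91 to 4.15). The 3 neighbouring pairs among the first 4 genes did not differ beyond counting error, MDM2 and PHLDA3 having a ratio of 1.04 (0.878 to 1.23). The reads of these genes lie near the end of the list at 284, and the intervals do not take that end into account. PPM1D and TP53INP1 had a ratio of 1.23 (0.989 to 1.54). By fold, TP53I3 moved to the first place and MDM2 to the fifth.

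The control level by which the ChIP reads are divided in the fold differed among these genes. TP53I3 and PPM1D were scored against the lowest level used, the genome-wide one, of 2.41 reads per 142 bp. In all, 6 of the 18 peaks were, and 51.9% of the list. At the internal MDM2 peak, 5 control reads fell within the 142 bp around the summit, and at the first CCNG1 peak 4 did. For PHLDA3 the start peak was scored against 24 control reads in 1 kb, or 3.41 per 142 bp. Over the genome-wide level, an alternative chosen after the data were seen, the same ChIP reads gave folds of 81.3 at MDM2, 78.2 at PHLDA3, 69.3 at CCNG1 and 68.2 at TP53I3. The counting error of the control reads is not in the intervals. All 7 peaks of MDM4 and PHLDA3 lay on chromosome 1 beyond 200 Mb, where 0.368% of 544 peaks were scored at the genome-wide level, against 46.5% in the rest of the chromosome. Their control levels ran from 2.90 to 4.0. Over the genome-wide level the highest MDM4 peak, with 38 ChIP reads, had a fold of 11.2, still the lowest of the 8 genes.

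**Figure D4:**
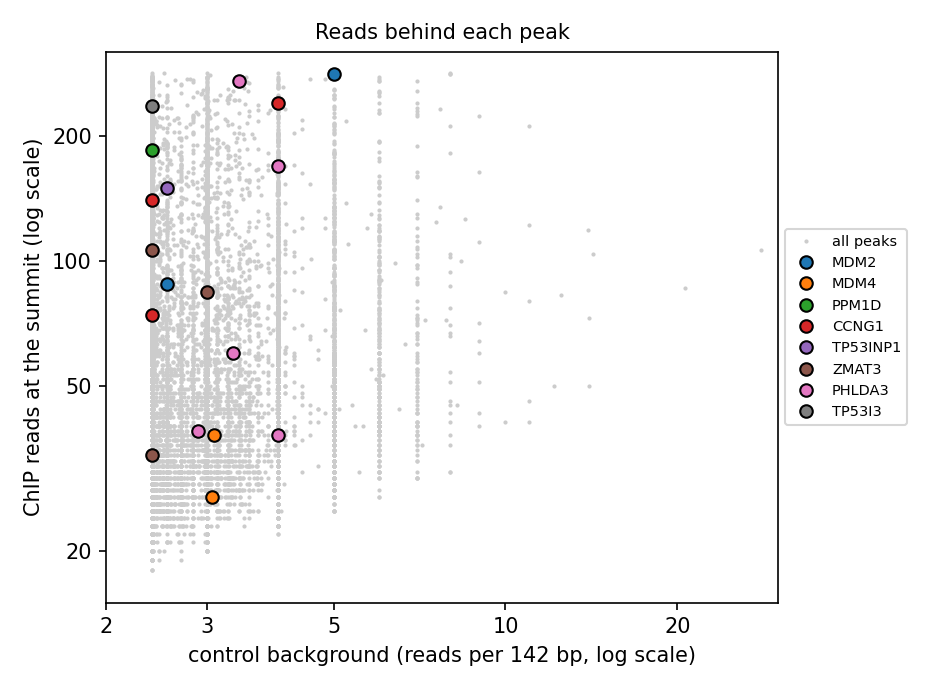
ChIP reads at the summit (y axis, log scale) against the control level used for the fold (x axis, reads per 142 bp, log scale); grey points are all peaks and coloured points the 18 peaks by gene. The 3 peaks of the list with a control level above 30 are outside the axis; the internal MDM2 peak is the coloured point with the most reads and the highest control level, 5.0, and TP53I3 has 237 reads at the lowest level, 2.41.

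The number of peaks per window also varied. PHLDA3 had 113.6 peaks per Mb (95% exact Poisson interval 36.9 to 265.2) against 8.28 on chromosome 1, CCNG1 had 62.5 (12.9 to 182.7) against 5.48 on chromosome 5, and ZMAT3 had 31.6 (6.51 to 92.3) against 5.60 on chromosome 3. For the other 5 genes, with 1 or 2 peaks each, the interval included the density of the chromosome. These intervals treat peaks as independent, although 4 of the 18 had another summit within 1 kb.

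The limit of 20 kb decided some of these values. Just inside it were the CCNG1 peak at 16.7 kb from the span, with a fold of 21.5, and the PHLDA3 peak at 11.7 kb, with a fold of 13.7. Just outside were the 2 peaks on either side of MDM4, each at 21.1 kb, with folds of 43.1 upstream and 8.78 downstream. The next were a PHLDA3 peak at 29.0 kb with a fold of 20.03, the TP53INP1 peak at 30 kb with a fold of 16.3, and a PHLDA3 peak at 38.3 kb with a fold of 9.38.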

How the data were processed

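TP73 ChIP-seq reads of 50 bases from TL-Om1 cells were processed by the authors, who deposited 1 peak list made from the single ChIP library. The submitters' processing notes name Bowtie2, SAMtools and MACS2 with hg19. Their parameters, and how duplicates were handled, are not given in the sources used. The deposited list gives each peak's fold enrichment (a ratio of ChIP pileup to control), the −log10 of its p-value and q-value, a score, which was not used, and the summit's distance from the peak start as another value in bp. These are the authors' own values per peak. The control is whole cell extract per the labels, but all 18908 peak names contain IgG, so which library served as control is not settled.

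ChIP reads and control level were solved for each peak from the deposited fold, (pileup + 1) / (background + 1), and the p-value, taken as a Poisson tail, with backgrounds under 0.5 left out. One read was worth 0.975 units of pileup. Of 13779 peaks not used to fit that step, 100% gave whole reads within 0.01, and the 18 peaks described here each had 1 solution. On 586 simulated peaks, the read count was recovered for 99.8%; the simulation used the same formulas. Read totals are unknown.

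Peak positions are on hg19, counted from 1. Intervals are 95%, exact Poisson for reads and densities and exact binomial for ratios of reads, and cover counting error only, since reads without molecular identifiers are not independent molecules. Densities used, for each chromosome, the distance between its outermost summits. Strand came from RefSeq for 6 genes and from general knowledge for TP53INP1 and PHLDA3. The genes, lists, limits and element searched were chosen with earlier results of these data known. All 8 genes are named with every peak. A list of 35 other p53-pathway genes was not analysed here, since it needs hg19 gene positions. Alternatives were other flanks, assignment by overlap, stricter limits, merging, and a genome-wide control level. Tools were matplotlib 3.10.9, scipy 1.17.1, numpy 2.4.6 and pandas 2.3.3 under Python 3.11.15.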

Additional observations from a re-analysis of the deposited data

How the results depend on the processing

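A peak was present at all 8 genes except under 3 settings, which left 7. With no flank PHLDA3 was lost, because its start peak lies just beyond the rounded end of the span, and MDM4 was lost at a −log10 q-value of at least 30 and at 50 or more ChIP reads. The number of peaks, 18, was 9 with no flank and 11 with a flank of 1 kb, and those with a fold of at least 10, 15, were 7 and 9; fewer bases were searched. In both, the highest fold at ZMAT3 was 20.7 in place of 30.6. With a flank of 50 kb the highest fold at MDM4 was 43.1 in place of 9.33, from the peak 21.1 kb upstream, whose gene was not tested. Over the genome-wide control level the highest folds were 81.3 at MDM2, 78.2 at PHLDA3 and 69.3 at CCNG1. The limit of 1 kb, that of 50 reads and the genome-wide control level were added after the data were seen. Under the other settings run, counts stayed within 1.5 times. The median fold was between 21.5 and 41.4 under every setting run. None of the 18 peaks was removed by requiring a fold of 5 or a −log10 q-value of 10. Leaving out a library was not possible with 1 per group. No paired analysis was possible because a single ChIP library was called against a single control. The weakest of the 18 peaks rests on 27 ChIP reads.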
